A study of Saccharomyces cerevisiae with 6 samples.

Results

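The nuclear RNA polymerases of Saccharomyces cerevisiae are built from 31 subunit genes, and all 31 were found among the 5479 gene models of the authors' deposited table by gene name (names beginning RPA, RPB or RPC followed by a number, and RPO21, RPO26, RPO31 and RET1). Each had 1 model and each was tested by the authors. By the make-up of the enzymes the genes fall into 7 for subunits found only in RNA polymerase I (Pol I), 7 found only in Pol II, 10 found only in Pol III, 2 shared by Pol I and Pol III, and 5 common to the 3 enzymes. The genes were named by function, but with earlier results of these data known.

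RNA came from 6 independent chemostat cultures limited by glucose and sparged with air, 3 of each strain. All were kept at pH 5.0 and 30 °C with the dilution rate set to 0.10 per h, and their synthetic medium held lipoic acid at 500 ng/mL, added from a stock in ethanol, and glucose at 7.5 g/L. CEN.PK113-7D, a laboratory strain with intact ACS1 and ACS2, was the reference. IMY104 carries the deletions acs1Δ and acs2Δ, which remove the native acetyl-CoA synthetases, and the centromeric plasmid pUDC140 (CEN6 ARS4) with the Enterococcus faecalis genes pdhA, pdhB, aceF and lpd for a pyruvate dehydrogenase and lplA and lplA2 for its lipoylation. The table gives 1 FPKM value per strain over 3 libraries (fragments scaled to model length and library total) with the authors' test, and no value per library, so no spread over cultures can be shown and the depth is unknown. Replicate cultures are named in the table only as pools, and its name for the IMY104 pool holds the name of another CEN.PK strain, cenpk102-12a. In the authors' deposited table ACS1 went from 1094 FPKM in CEN.PK113-7D to 0.882 in IMY104 and ACS2 from 494 to 0.179, and the 7 plasmid models had 344 to 10685 FPKM in IMY104 against at most 2.74 in the reference.

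Eukaryotic nuclei divide transcription among these enzymes: Pol I makes the large ribosomal RNA precursor, Pol II makes messenger RNA, and Pol III makes transfer RNA and other short RNAs. Each has a pair of large catalytic subunits, an alpha-like pair on which the enzyme assembles, a stalk, a zinc-ribbon subunit that helps cut RNA, and the small common subunits, while Pol I and Pol III carry further subunits that resemble general initiation factors of Pol II. In yeast the genes for Pol I and Pol III are known to be controlled with ribosome assembly genes through a promoter element, the PAC box, named after polymerases A and C, the older names of Pol I and Pol III, and often through a second element, the RRPE. Dot6 and Tod6 bind the PAC box and Stb3 binds the RRPE.

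The promoters are shown for the subunit genes that the authors called changed, with a Pol I and a Pol II gene for comparison, because the letters of these elements set the enzymes apart. The windows run from 250 bases before to 50 bases after the start codon's first base, on the coding strand, and come from RefSeq assembly R64 of strain S288C with its own annotation, matched by systematic name for all 31 genes; they are not sequences of the strains measured. R64 positions are chr4:183093-183392 on the plus strand for RPC53, chr16:918992-919291 on the minus strand for RPC82, chr14:635248-635547 on the minus strand for RPC34, chr8:386983-387282 on the plus strand for RPC10, chr15:960737-961036 on the plus strand for RPA190 and chr15:616622-616921 on the minus strand for RPB2. Capitals mark the PAC core GATGAG and the RRPE letters AAATTTT on either strand, so the reverse forms CTCATC and AAAATTT are in capitals too. Where the longer form CGATGAG is complete, as in reverse in RPC82, its added letter is also in capitals.
RPC53: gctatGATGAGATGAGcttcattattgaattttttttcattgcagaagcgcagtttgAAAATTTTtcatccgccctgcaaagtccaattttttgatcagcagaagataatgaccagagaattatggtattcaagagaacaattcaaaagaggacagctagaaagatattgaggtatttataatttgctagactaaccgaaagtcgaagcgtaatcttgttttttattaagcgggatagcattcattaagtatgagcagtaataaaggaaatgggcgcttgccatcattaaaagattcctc
RPC82: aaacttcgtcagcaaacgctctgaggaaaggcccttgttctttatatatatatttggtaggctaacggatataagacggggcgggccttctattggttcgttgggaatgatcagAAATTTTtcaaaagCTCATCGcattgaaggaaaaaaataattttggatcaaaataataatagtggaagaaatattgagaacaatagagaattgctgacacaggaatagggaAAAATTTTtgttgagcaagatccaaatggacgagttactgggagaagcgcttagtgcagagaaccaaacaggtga
RPC34: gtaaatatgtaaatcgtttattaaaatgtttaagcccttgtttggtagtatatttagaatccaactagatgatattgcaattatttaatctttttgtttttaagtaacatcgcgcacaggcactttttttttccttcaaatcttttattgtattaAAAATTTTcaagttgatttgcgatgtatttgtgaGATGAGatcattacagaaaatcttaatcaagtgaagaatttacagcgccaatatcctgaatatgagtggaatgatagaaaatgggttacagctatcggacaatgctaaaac
RPC10: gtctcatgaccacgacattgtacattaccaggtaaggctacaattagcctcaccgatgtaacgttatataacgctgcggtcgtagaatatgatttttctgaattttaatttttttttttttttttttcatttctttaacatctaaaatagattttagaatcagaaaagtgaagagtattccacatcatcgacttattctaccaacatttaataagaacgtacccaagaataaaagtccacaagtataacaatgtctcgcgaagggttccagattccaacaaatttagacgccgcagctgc
RPA190: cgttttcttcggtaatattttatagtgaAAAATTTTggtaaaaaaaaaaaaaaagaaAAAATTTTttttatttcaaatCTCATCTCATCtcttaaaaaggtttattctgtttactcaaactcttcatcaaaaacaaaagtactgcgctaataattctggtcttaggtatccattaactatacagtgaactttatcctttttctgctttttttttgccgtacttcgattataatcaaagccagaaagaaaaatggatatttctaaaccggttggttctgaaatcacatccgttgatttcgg
RPB2: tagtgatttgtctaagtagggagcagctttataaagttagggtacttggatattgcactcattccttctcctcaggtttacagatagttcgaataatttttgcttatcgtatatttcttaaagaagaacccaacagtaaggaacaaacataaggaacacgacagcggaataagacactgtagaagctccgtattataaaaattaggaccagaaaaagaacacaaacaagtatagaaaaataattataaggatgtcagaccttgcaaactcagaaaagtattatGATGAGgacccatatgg

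The Pol III windows of RPC53, RPC82 and RPC34 hold both elements, with the PAC core nearest the start 240, 122 and 61 bases before it. RPA190 holds a tandem of PAC cores that begin 172 and 167 bases before the start, and RPC53 has a similar overlapping tandem. RPC10, a common subunit, holds neither, and the PAC core of RPB2 lies 33 bases inside the coding sequence.

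Over all 31 windows the PAC core stood in 6 of 7 Pol I genes, both genes shared by Pol I and III, 8 of 10 Pol III genes, none of the 5 common genes and 1 of 7 Pol II genes. The same letters stood in 1222 of 6001 promoters of R64 (20.4%). Counting only matches that lie wholly before the start codon, the letters stood in 0 of 7 Pol II genes and in 16 of the 19 Pol I and Pol III genes (84.2%, against 17.0% of all promoters). The longer form CGATGAG was found in 9 of those 19 genes (47.4%) against 7.02% of all promoters. RRPE letters were spread more widely, in 16 of the 19 Pol I and Pol III genes and 4 of 5 common genes but 2 of 7 Pol II genes, against 23.2% of all promoters. A match with AAATTTT often counts on both strands, since the overlap AAAATTTT reads the same either way. RPA12, RPC11 and RPC17 were the Pol I and Pol III genes without the PAC core in this window. These matches are letters, not shown binding sites.

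**Figure D1:**
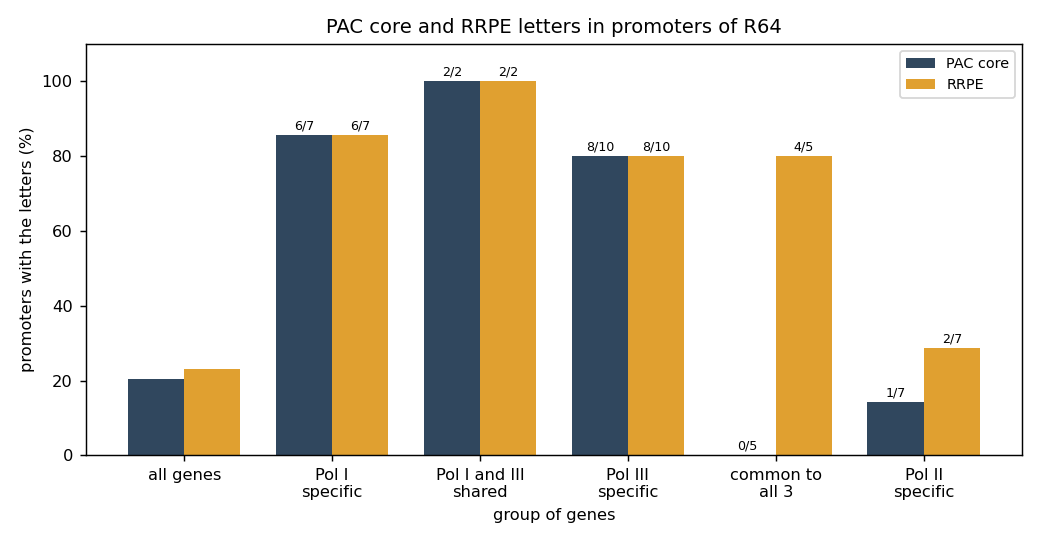
Share of promoter windows (percent, vertical axis) that hold the PAC core GATGAG (dark bars) or the RRPE letters AAATTTT (yellow bars) on either strand, for all genes of R64 and for each group of subunit genes, with counts above the bars of the subunit groups. The PAC core is in 16 of the 19 Pol I and Pol III genes (the shared pair included) and in 1 of 12 that Pol II uses.

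Between the strains, 4 of the 31 subunit genes were called by the authors (q under 0.05), all higher in IMY104: RPC53, RPC34 and RPC82, which encode Pol III subunits, and RPC10, a subunit common to the enzymes. No subunit gene was called lower. Over the 5463 tested models the authors called 22.6%, with 11.6% higher and 11.0% lower, so the members' 12.9% called higher was near the background and their share called in either direction was below it. Changes were small throughout, from 0.949-fold to 1.26-fold. By the direction of the log2 fold change, called or not, 21 of 31 were above 0, against 52.2% of tested models, and the median was 0.11 against 0.0080 over all tested models. FPKM is a share of a library averaged over a culture, so the amount of RNA per cell and the share of cells that changed cannot be told apart.

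**Figure D2:**
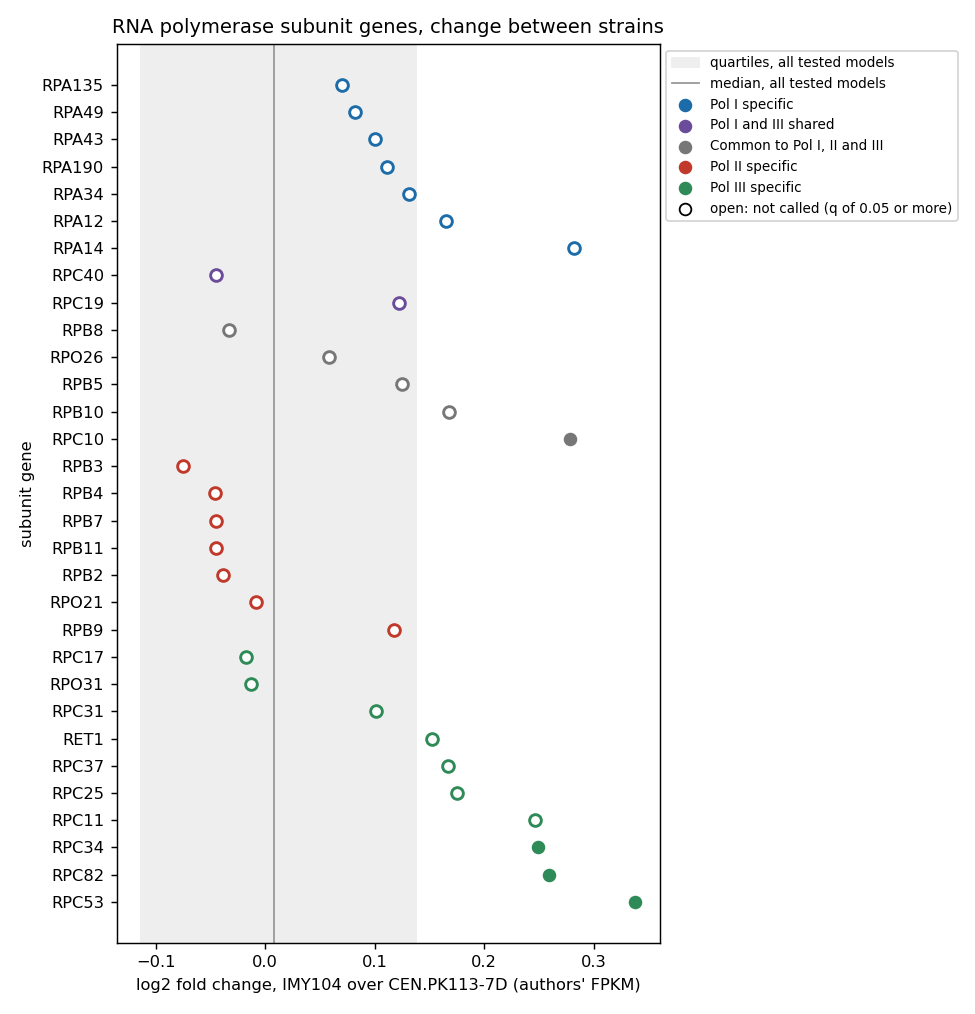
Log2 ratio of IMY104 to CEN.PK113-7D, the fold change, on the horizontal axis, for each subunit gene (rows), coloured by enzyme, with filled points for the 4 genes called at q under 0.05. The grey band spans the quartiles of all tested models, -0.11 to 0.14, and the line is their median; the Pol II genes sit to the left of the Pol I genes except RPB9.

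All 7 Pol I genes had log2 fold changes above 0, with a median of 0.11 and a range of 0.070 to 0.28. Of 10 Pol III genes 8 were above 0, with a median of 0.17 and a range of -0.017 to 0.34. Of 7 Pol II genes 6 were below 0, with a median of -0.045 and a range of -0.075 to 0.12, but when IMY104 was rescaled to the same FPKM sum over chromosomal models all 7 were above 0, with a median of 0.036. That rescaling moved every gene of the series by the same 0.081 and put all 31 above 0. The share of all tested models above 0 after it is not given here. A shift common to all genes cannot change the order of the groups or their place relative to all tested models. With the median of all tested models set to 0, 6 of the 7 Pol II genes were below 0. The common genes had a median of 0.12 with 4 of 5 above 0, and the pair shared by Pol I and III had 0.12 and -0.045. Differences between the enzymes were not tested, because the members were named with earlier results of these data known. The table also has no value per library.

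Pol III held 3 of the 4 calls. In the authors' deposited table RPC53 (YDL150W, chromosome 4, 182079 to 183347 in the authors' assembly), which with RPC37 forms a pair that acts in termination and reinitiation, went from 47.9 to 60.5 FPKM. This rise of 1.26-fold (log2 fold change 0.34, q = 0.0031 per the authors' deposited table) was the largest of the 31 genes, and 6.83% of tested models had a change at least as high. Its partner RPC37 had 50.5 and 56.7 FPKM, a log2 fold change of 0.17, and was not called (q = 0.254) per the authors' deposited table. The ratio of RPC53 to RPC37 was 0.948 in the reference and 1.07 in IMY104, so the members of the pair stood at nearly equal levels in both strains.

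RPC82, RPC34 and RPC31 form the trimer through which Pol III meets its initiation factor TFIIIB and opens DNA. In the authors' deposited table RPC82 (YPR190C) rose from 36.0 to 43.1 FPKM, with a log2 fold change of 0.26 and q = 0.0338. RPC34 (YNR003C), whose product contacts the factor Brf1, rose from 96.6 to 115 FPKM, with 0.25 and q = 0.0378 per the authors' deposited table. Both q-values stand close to the threshold, and RPC53 was the 1 subunit gene still called at q under 0.01. RPC31, the acidic member of the trimer, had 124 and 133 FPKM, a log2 fold change of 0.10 and q = 0.50, per the authors' deposited table. Of the trimer's genes the one with the highest level was thus the one not called.

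Neither catalytic subunit gene of Pol III was called. RPO31, the largest subunit and the lowest of all 31 genes, had 26.1 FPKM in the reference and 25.8 in IMY104 per the authors' deposited table. RET1, the second-largest subunit, had 39.9 and 44.3 FPKM and a log2 fold change of 0.15 (q = 0.257) per the authors' deposited table.

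Among the other Pol III subunits, RPC11, the zinc-ribbon subunit needed for RNA cleavage and termination, came nearest to a call. It had 231 and 274 FPKM, a log2 fold change of 0.25 and q = 0.0714 per the authors' deposited table. In the stalk, RPC25 had 128 and 144 FPKM, a log2 fold change of 0.17 and q = 0.194, and its partner RPC17 had 108 and 107 FPKM, a log2 fold change of -0.017 and q = 0.936, per the authors' deposited table. The RPC17 to RPC25 ratio was 0.843 in the reference and 0.738 in IMY104.

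No Pol I gene was called, although each was above 0. RPA14, a stalk subunit that yeast can grow without, had the largest value of the group. It went from 51.0 to 62.1 FPKM, a log2 fold change of 0.28, with p = 0.0209 and q = 0.0807 per the authors' deposited table. Its change was as large as that of RPC10, which was called. RPA43, its stalk partner and the contact of the initiation factor Rrn3, had 82.6 and 88.6 FPKM and a log2 fold change of 0.10 (q = 0.514) per the authors' deposited table.

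The catalytic pair of Pol I had small values. RPA190, the largest subunit, had 48.2 and 52.1 FPKM and a log2 fold change of 0.11 (q = 0.459) per the authors' deposited table. RPA135, the second-largest, had 112 and 117 FPKM and 0.070 (q = 0.666) per the authors' deposited table. The RPA135 model spans 1329 bp, 36.8% of the gene's length in R64, and no other model carries its name, so its level rests on that piece. RPA190 and RPA43 are divergent neighbours with the start codons at either end of one 802-base stretch, and both windows hold PAC and RRPE letters.

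RPA49 and RPA34 form a pair that resembles the Pol II factor TFIIF and is built into Pol I. RPA49 had 135 and 143 FPKM with a log2 fold change of 0.082 (q = 0.602) and RPA34 had 187 and 204 FPKM with 0.13 (q = 0.342) per the authors' deposited table. RPA12, the zinc-ribbon subunit, had 298 and 334 FPKM with 0.17 (q = 0.229) per the authors' deposited table. The Pol I genes other than RPA14 therefore lay between 0.070 and 0.17, none of them past the threshold.

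None of the 7 Pol II genes was called. RPO21, the largest subunit, whose tail of repeats carries the phosphorylation code of transcription, had 38.9 and 38.7 FPKM per the authors' deposited table. RPB2, the second-largest, had 89.2 and 86.8 FPKM and a log2 fold change of -0.039 (q = 0.841) per the authors' deposited table. RPB3 and RPB11, the alpha-like pair, had log2 fold changes of -0.075 and -0.045 at 203 and 624 FPKM in the reference per the authors' deposited table. All 4 lay within the quartiles of all tested models.

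RPB4 and RPB7, which form the stalk and can leave the enzyme, had nearly the same value, -0.046 and -0.045 on the log2 scale, per the authors' deposited table. The RPB4 to RPB7 ratio was 1.95 in the reference and 1.94 in IMY104, although the RPB7 model covers 87.8% of the R64 gene. RPB9, the zinc-ribbon subunit that supports accuracy and RNA cleavage and is not needed for growth, was the one Pol II gene above 0. It had 304 and 330 FPKM, a log2 fold change of 0.12 and q = 0.419 per the authors' deposited table.

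The common subunits had the highest median level of the 5 groups, 697 FPKM in the reference. They also had the shortest models, with a median length of 441 bp, and shorter models had higher levels over all tested models. RPB10 and RPC10 (also called RPB12), tiny zinc-binding proteins at the assembly platform, had 1664 and 1609 FPKM in the reference against 1869 and 1951 in IMY104 per the authors' deposited table. RPC10 (YHR143W-A, chromosome 8, 380389 to 380601 in the authors' assembly) rose with a log2 fold change of 0.28 and q = 0.0221, while RPB10 had 0.17 and q = 0.21, per the authors' deposited table. Both models are 213 bp, and the RPC10 call is the one of the 4 that is left out when models under 300 bp are dropped. RPB8 had 697 and 681 FPKM, RPO26 610 and 636, and RPB5, at the jaw of the enzyme, 338 and 368, with log2 fold changes of -0.033, 0.058 and 0.12, per the authors' deposited table; none was called.

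The subunits shared by Pol I and III form their alpha-like platform. RPC40 had 254 and 246 FPKM, with a log2 fold change of -0.045 and q = 0.796, per the authors' deposited table. RPC19 had 455 and 496 FPKM, with 0.12 and q = 0.382, per the authors' deposited table. The RPC40 to RPC19 ratio was 0.557 in the reference and 0.496 in IMY104.

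**Figure D3:**
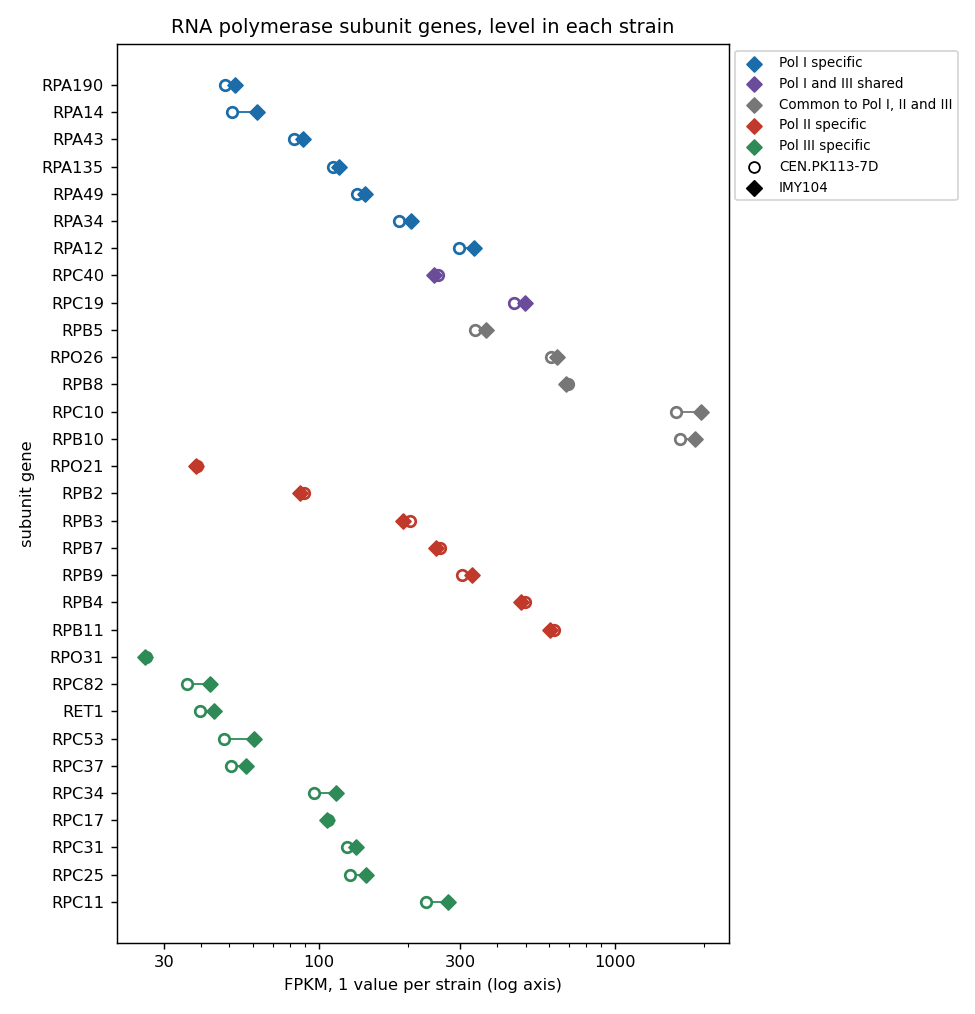
FPKM of each subunit gene (horizontal log axis) in CEN.PK113-7D (open circles) and IMY104 (diamonds), 1 value per strain, with a line joining the strains, grouped by enzyme and sorted by level. Genes run from RPO31 at 26.1 FPKM to RPB10 at 1664 in the reference, a much wider span than any difference between the strains.

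Compared position by position, the Pol II subunit had the lower log2 fold change in nearly every case. For the 7 positions at which Pol I, Pol II and Pol III have corresponding subunits, 11 of 12 counterparts had a higher value than the Pol II subunit. The exception was the largest subunit, with -0.0086 for RPO21 and -0.013 for RPO31 per the authors' deposited table. The widest span of values over the genes of a position was at the stalk position of RPA14, RPB4 and RPC17. There RPA14 had 0.28 and RPB4 -0.046 per the authors' deposited table. The narrowest was at the larger alpha-like position, which has 1 counterpart, where RPC40 had -0.045 and RPB3 -0.075. Even the zinc-ribbon genes, all above 0, kept the order of 0.12 for RPB9, 0.17 for RPA12 and 0.25 for RPC11 per the authors' deposited table. None of these 7 Pol II genes and none of their 12 counterparts was called, so the order is a description of the deposited values.

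**Figure D4:**
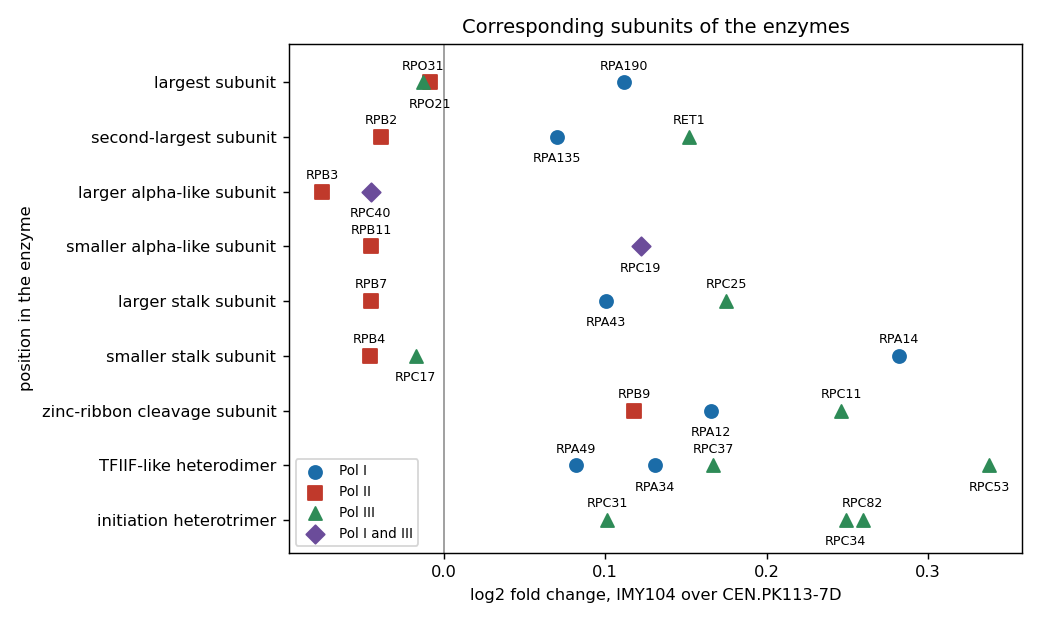
Log2 ratio of IMY104 to CEN.PK113-7D, the fold change, on the horizontal axis, by position in the enzyme (rows), with Pol I as circles, Pol II as squares, Pol III as triangles and the subunits shared by Pol I and III as diamonds. The lower 2 rows have no Pol II subunit and hold RPC53, RPC82 and RPC34, which were called higher. The stalk rows are named by size in Pol I and Pol III, since RPB4 is the longer of the Pol II pair.

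Longer models had lower levels. Although each enzyme holds its subunits in fixed numbers, FPKM spanned 63.8-fold in CEN.PK113-7D and 75.5-fold in IMY104. The 10 subunit genes with models of at least 1000 bp had a median of 48.0 FPKM and the 11 under 500 bp 304, against 56.8 and 435 for all tested models of those lengths in the reference. Over the 31 genes Spearman's rho of length and reference FPKM was -0.78, and over all tested models -0.57; the points share the same libraries and the same scaling by length. RPA14 stood below the other short genes, with 51.0 FPKM at 414 bp. At corresponding positions 9 of 12 counterparts had a lower FPKM than the Pol II subunit in CEN.PK113-7D. Length and log2 fold change had a rho of -0.20 over the 31 genes.

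**Figure D5:**
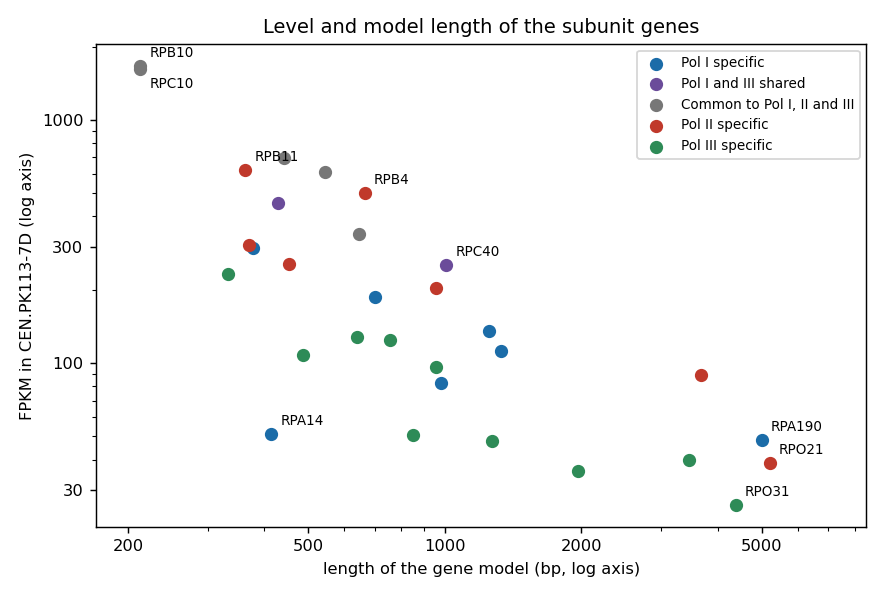
FPKM in CEN.PK113-7D (vertical log axis) against the length of the gene model (horizontal log axis) for the 31 subunit genes, coloured by enzyme. The common subunits RPB10 and RPC10, at 213 bp, are the highest, the largest subunits are among the lowest, and RPA14 lies below the other short genes.

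The change relative to the authors' p-value was similar for most subunit genes. Dividing each log2 fold change by the normal deviate of the authors' p-value gave 0.0885 to 0.122 for the members, and 30 of 31 were at most 0.12. For the models in the members' range of FPKM the quartiles of this ratio were 0.0932 and 0.0975. The smallest change called among those models was 0.23 on the log2 scale, the largest not called was 0.76, and 22.2% of those models were called. RPA14, not called at 0.28, had the highest ratio, 0.122. The values of 0.070 to 0.17 of the Pol I genes other than RPA14 were below this smallest called change, so a shift of that size is not shown to be absent.

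The factors that work with the polymerases were tested in the same table, and 7 of 99 were called, 5 higher and 2 lower, against the 22.6% called of all tested models. Among the Pol I initiation factors 1 of 9 was called: RRN11, of the core factor, rose from 13.2 to 17.5 FPKM with a log2 fold change of 0.41 per the authors' deposited table. None of the 10 Pol III factors was called, and their median was -0.0024, against 0.17 for the Pol III subunits. Rrn3, which carries Pol I to the promoter, and Maf1, the repressor of Pol III, were looked up after the values had been seen: RRN3 had 50.5 and 54.0 FPKM and MAF1 196 and 189, neither called per the authors' deposited table.

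For Pol II, 1 of 18 general factors was called, and none of 25 Mediator genes. CCL1, the cyclin of TFIIH, fell from 107 to 82.6 FPKM with a log2 fold change of -0.37 per the authors' deposited table. Of 20 genes for elongation factors and enzymes that modify the Pol II tail 2 were called: BUR2, a cyclin of elongation, rose with 0.32 and ESS1, a prolyl isomerase, with 0.29 per the authors' deposited table. Medians of these 3 lists were 0.019, 0.00021 and 0.016, close to the 0.0080 of all tested models. Among 7 assembly and import factors RBA50, which helps assemble Pol II, rose with 0.25 per the authors' deposited table. The TATA-binding protein SPT15, which all 3 enzymes use, had 293 and 324 FPKM and was not called (q = 0.273), and neither gene of the mitochondrial RNA polymerase was called, with log2 fold changes of 0.14 for RPO41 and 0.080 for its factor MTF1, per the authors' deposited table.

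The PAC-binding repressors moved in opposite directions. DOT6 fell from 59.2 to 46.6 FPKM, with a log2 fold change of -0.35 and q = 0.0034, per the authors' deposited table. TOD6 rose from 53.3 to 70.5 FPKM, with 0.40 and q = 0.00047, per the authors' deposited table. The other 5 genes of that list were not called. Their part in the values of the polymerase genes was not tested.

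The promoter letters separated the subunit genes to a degree that varied with the definition. Subunit genes with the PAC core before the start codon had a median log2 fold change of 0.13 (16 genes, 14 above 0), and those without it -0.0086 (15 genes, 7 above 0). With the PAC core anywhere in the window the medians were 0.12 (17 genes) and 0.025 (14 genes). With CGATGAG they were 0.12 (9 genes) and 0.091 (22 genes), and with CGATGAG and the RRPE letters together 0.13 (8 genes) and 0.10 (23 genes). With the RRPE letters, PAC core or not, they were 0.12 (22 genes, 18 above 0) and -0.039 (9 genes, 3 above 0). The splits by the PAC core largely repeat the split by enzyme. The RRPE split does so in part, with those letters in 2 of 7 Pol II genes and 16 of 19 Pol I and Pol III genes. Over all genes with a tested model, 887 had the PAC core before the start codon, with a median of 0.059. The other 4455 had a median of -0.00033. The shares called higher were close, 11.95% with it (106 genes) and 11.34% without it (505 genes). With the PAC core anywhere the 1062 genes had a median of 0.050 and the other 4280 had -0.0017, with 11.3% and 11.5% called higher. The 237 genes with CGATGAG and the RRPE letters had a median of 0.10, against 0.0040 of the remaining genes. In both 11.4% were called higher, and 2.95% against 11.3% were called lower. The shares called lower with and without the letters were 6.60% and 12.4% for the RRPE and 6.20% and 11.4% for CGATGAG. For the PAC core they were 9.23% and 11.4% anywhere in the window and 9.13% and 11.3% before the start codon.

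No member's model overlapped another model, the smallest gap being 86 bases, although untranslated ends are not part of the models and no step that marks strand is named. Of the 62 neighbouring models 5 were called higher and 6 lower. Both shares were below those of all tested models, 11.6% higher and 11.0% lower. RPC82 starts 339 bases from the divergent gene QCR2, a subunit of respiratory complex III, which rose from 798 to 1081 FPKM per the authors' deposited table. RPC53 starts 324 bases from the divergent gene SAS10, a ribosome assembly gene, which had 63.2 and 73.9 FPKM and was not called (q = 0.0681) per the authors' deposited table. Downstream of RPC53, the autophagy gene ATG9 fell with a log2 fold change of -0.35, and upstream of RPC10, DSE2, a daughter-cell separation gene, fell with -0.54, per the authors' deposited table.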

How the data were processed

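Libraries were made from total RNA as cDNA, per the labels' protocols, with no step named that marks strand. Cuffdiff and Cufflinks (without version), SAMtools 0.1.7-r510, BWA 0.5.9-r16 and CASAVA 1.8.2 are named, per the submitters' processing notes, without roles. No source used here states the genome build or how libraries were scaled. The authors deposited 1 FPKM value per strain, a log2 fold change, a signed fold change and a test statistic (both scores), and p-values and q-values. Per the file headers 3 libraries were pooled per strain.

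Calls are the authors' at q under 0.05 over 5463 tested models. Deposited log2 fold changes equalled the log2 FPKM ratio within 0.0001 and q-values the Benjamini-Hochberg values within 1e-06. The test statistic did not track the p-values, so no error was taken from it as had been planned. Members had 1 model each, 29 of the length of the R64 gene. Members and lists were chosen with earlier results of these data known. All members are named; of other lists, called genes (at most 4 per list) are named. SPT15, RPO41 and MTF1 (lists of 1 and 2 genes, printed whole), neighbours and genes named as looked up were chosen after their values were seen. Counts, medians and motif searches used Python 3.11.15 and pandas 2.3.3. The q-value adjustment was tested on simulated p-values and the motif search on planted CGATGAG letters. The medians were not tested in this way. Depth per library is unknown.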

Additional observations from a re-analysis of the deposited data

How the results depend on the processing

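The count of 4 subunit genes called, all higher, became 1 at q under 0.01 and 1 with Benjamini-Yekutieli adjustment. With the planned minimum on the fold added it was also 1 of 31, while 14.9% of all tested models were called. The shares of all tested models called at q under 0.01 and with Benjamini-Yekutieli adjustment are not given here. The count stayed within 1.5 times under the other planned thresholds, filters and model choices. Rescaling to the same FPKM sum over chromosomal models adds 0.081 to every log2 value. The medians became 0.19 for Pol I and 0.25 for Pol III. For the pair shared by Pol I and III the median became 0.12, and for the common subunits 0.21. The Pol II median changed sign, to 0.036. The median of all tested models moves by the same amount, so each group keeps its distance from it. With that median set to 0 instead, the Pol II median was -0.053. Dropping models under 300 bp gave a common median of 0.058. Other pseudocounts, quantile normalization, centring and means moved no group median by 0.05. Leaving out models that cover less than 95% of the R64 gene, chosen after seeing the data, did not either. Leaving out each replicate was not run, because the table has 1 value per strain. No paired analysis was possible because the columns carry no replicate.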
